A study of Mus musculus with 105 samples.

Results

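The 44 genes described here are interferon-stimulated genes, taken by symbol from a table of raw counts with 53379 Ensembl gene IDs. All 44 symbols matched 1 row each. The list holds 4 IFIT genes, 8 genes of the ISG15 and ubiquitin system, 9 antiviral effectors, 4 transcription factors of the response, 6 guanylate-binding or immunity-related GTPases, 2 HIN-200 genes, 2 ADP-ribosyltransferases and 9 other induced genes. Genes of the Oas family, RNA sensors, chemokines and MHC genes are not in it.

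The 105 mRNA libraries of the series come from C57BL/6 material: tumour lines, melanocyte cultures and organs of healthy mice. The comparisons of conditions use 45 libraries of B16 (melanoma), its variant B16OVA, MCA101OVA (fibrosarcoma) and MC38 (colon adenocarcinoma), each as WT, Ctrl and Setdb1KO. B16OVA has 6 libraries per condition and the other lines have 3. The product of Setdb1 methylates lysine 9 of histone H3 and keeps transposable elements silent, and the series asks which transcripts that involve transposable elements its loss uncovers in tumour cells. All tumour cells were grown in RPMI with puromycin. What the Ctrl cells carry, and whether a knockout line is a clone or a pool, is not given in the sources used here. A further 5 libraries come from cultured melanocytes of newborn C57BL6/J mice, and the 48 tissue libraries from 12 organs of WT female mice, 4 libraries each. Since no label tells if replicate libraries stem from separate cultures, p-values may measure technical spread alone.

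Type I interferons bind the receptor of Ifnar1 and Ifnar2, and the kinases Jak1 and Tyk2 then activate a transcription complex that holds Stat2 and Irf9. This complex binds interferon-stimulated response elements in promoters and switches on the genes described here. Many of their products block steps of viral replication, while others, such as Usp18, damp the signal. Interferon gamma acts through its own receptor and Irf1, and induces the GTPase genes in particular.

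The response element was looked for in RefSeq promoters of mouse build GRCm38.p6, from 250 bases before to 50 bases after the transcription start, to show what the genes share in sequence. The table held 32 of the 44 genes. Its core, GAAA and again GAAA with any 2 bases between them, read on both strands, was in the promoters of 16 of these 32 (50%, exact 95% interval 31.9 to 68.1) and of 1079 of all 27025 genes in the table (3.99%). The longer form, with a C after the second GAAA, contains the core and was in 13 of 32 (40.6%) and in 0.944% of all genes. The letters TTCNNNGAA, the gamma-activated site, were in 8 of 32 (25.0%) and in 9.55% of all genes. By role, the element was present in 5 of 5 matched GTPase genes, 3 of 4 IFIT genes, 3 of 7 genes of the ISG15 system, 3 of 6 effectors, 1 of 1 HIN-200 gene, 1 of 4 transcription factors and 0 of 5 other induced genes, while 0 of the 2 ADP-ribosyltransferase genes were matched. The table has no entry for Ly6e, Parp14, Usp18, Ifi204, Tor3a, Parp9, Mx2, Rtp4, Ifi27l2a, Ifi27, Iigp1 and Mx1. The following lines give the 150 bases before the start, written 5′ to 3′ on the strand of the gene, for members of 4 roles whose counts moved widely between libraries and for Trim25, which passed the knockout test. Capitals mark the core on either strand (TTTC, 2 bases, TTTC where it lies on the other strand), so that a longer run of capitals holds overlapping matches.
Isg15, chr4:156200819-156200968, minus strand: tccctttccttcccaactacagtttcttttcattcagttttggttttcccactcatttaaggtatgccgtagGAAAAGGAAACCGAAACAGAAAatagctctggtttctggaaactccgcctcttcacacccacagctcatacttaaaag
Ifit3, chr19:34583379-34583528, plus strand: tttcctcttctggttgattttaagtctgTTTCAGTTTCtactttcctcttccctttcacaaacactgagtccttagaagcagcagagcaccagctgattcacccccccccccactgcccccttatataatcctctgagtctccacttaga
Rsad2, chr12:26456453-26456602, minus strand: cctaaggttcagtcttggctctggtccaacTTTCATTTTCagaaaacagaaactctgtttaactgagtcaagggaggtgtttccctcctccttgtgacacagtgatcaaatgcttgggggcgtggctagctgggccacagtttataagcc
Bst2, chr8:71537473-71537622, minus strand: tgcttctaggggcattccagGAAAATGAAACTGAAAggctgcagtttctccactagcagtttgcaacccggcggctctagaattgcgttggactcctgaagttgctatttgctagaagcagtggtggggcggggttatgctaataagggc
Irgm1, chr11:48871421-48871570, minus strand: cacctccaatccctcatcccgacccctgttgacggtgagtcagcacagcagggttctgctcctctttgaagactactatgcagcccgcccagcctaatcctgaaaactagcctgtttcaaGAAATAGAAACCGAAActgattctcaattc
Trim25, chr11:88999253-88999402, plus strand: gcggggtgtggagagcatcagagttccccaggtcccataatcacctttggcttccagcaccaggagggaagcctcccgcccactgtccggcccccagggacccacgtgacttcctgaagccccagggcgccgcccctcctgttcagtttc
The Isg15 window holds 3 overlapping matches, those of Bst2 and Irgm1 hold 2 each, those of Ifit3 and Rsad2 hold 1 each and that of Trim25 holds 0. A match is a description of letters and not a measured binding site.

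Levels are given in CPM, a gene's count scaled to 1 common library total, and the level of the whole list as the mean over the 44 genes of log2(CPM + 0.5). Library totals were 17186211 to 50393024 counts in the 45 tumour libraries. In 9 of the 50 cultured libraries log2 CPM fell with transcript length (slope under -0.15), namely B16 Ctrl 2 and KO 2, B16OVA WT 2, WT 5, Ctrl 2 and KO 2, MCA101OVA Ctrl 2 and KO 2 and MC38 Ctrl 1, and counts of called members that rest on them are given with and without them. Melanocyte markers summed to 13514 to 31193 CPM in the B16 and B16OVA libraries. In MCA101OVA WT, labelled a fibrosarcoma, the fibroblast genes Col1a1 and Dcn averaged 0.28 and 0.04 CPM and Col3a1 291 CPM, while the epithelial keratins Krt8 and Krt18 averaged 854.8 and 482.8 CPM. The other 4 of the 6 epithelial markers did not go that way: Krt19 and Cdh1 averaged 0.11 and 0.04 CPM there, and Epcam and Cldn7 had 0 counts. In MC38 WT, labelled a colon adenocarcinoma, Krt8 averaged 403.8 CPM but the epithelial genes Epcam and Krt19 0.01 CPM each. All 6 epithelial markers summed to 454 to 869 CPM in MC38 WT, with 2 of them at 0 in every library. All 7 fibroblast markers summed to 104 to 544 CPM in MCA101OVA WT, with 1 of them at 0 in every library. These markers go against the labels in part, and the lines are called by name. The 16 leucocyte markers summed to 2.41 to 10.6 CPM per tumour library, with 5 to 9 of the 16 at 0 in every library of a group. In knockouts against Ctrl the log2 fold of Setdb1 was -1.86 (SE 0.26) for B16, -1.17 (SE 0.18) for B16OVA and -1.39 (SE 0.26) for MCA101OVA, all called. In MC38 it was 54.9, 123 and 125 CPM in Ctrl and 60, 85.3 and 74.1 CPM in knockouts, a log2 difference of -0.52 (SE 0.26, adjusted p = 1). The MC38 libraries labelled Setdb1KO thus did not pass the test for their own target, and any direction drawn from them carries that limit.

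Of the 44 genes, 1 passed the test of knockout against Ctrl, in 1 of 4 lines. In B16OVA 1 gene, Trim25, was called higher (edgeR quasi-likelihood test, library set as block, adjusted p under 0.05), against 1.44% of all 16809 genes tested called in either direction. In B16, MCA101OVA and MC38, 0 members were called, against 0.833%, 0.482% and 0.744% of all genes. DESeq2 called the same numbers of members, 0, 1, 0 and 0 in B16, B16OVA, MCA101OVA and MC38, as did the fit without the libraries of low length slope. At an unadjusted p under 0.05, 0 members differed in B16 and MC38 (3.73% and 3.4% of all genes), Ly6e and Trim25 differed in B16OVA (9.92%), and Ifit2 did in MCA101OVA (9.43%). The median log2 fold over the 44 genes was -0.24 for B16, 0.24 for B16OVA, 0.15 for MCA101OVA and -0.19 for MC38, beside a median over all genes of 0.02 in MCA101OVA and nearer to 0 in the other lines. Without the libraries of low length slope the member medians were -0.13, 0.04, -0.74 and 0.50 in the same order, so that those of MCA101OVA and MC38 turned sign. In the fit of all libraries, positive estimates numbered 14, 30, 28 and 10 of 44 in these lines. All 44 genes passed the filter on low counts, which asks for counts in any 1 group, so that several were tested in B16 and B16OVA at levels near 0.

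**Figure D1:**
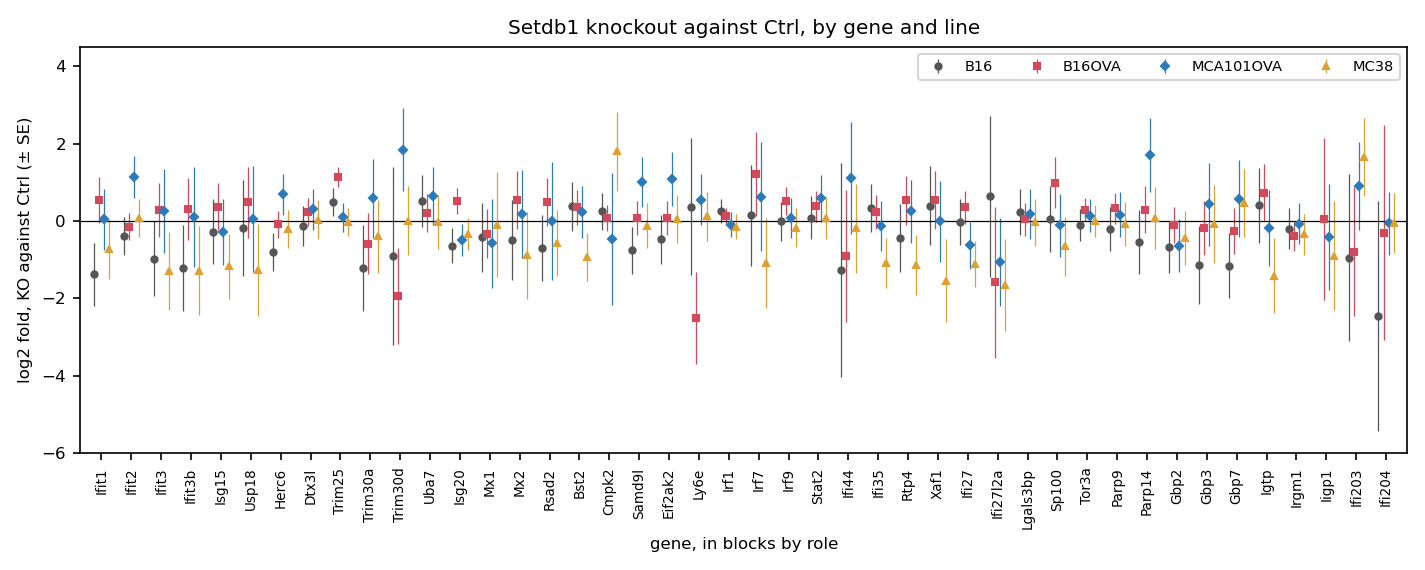
Log2 fold of each gene (x axis, in blocks by role) in Setdb1KO against Ctrl (y axis), with its standard error as bars, for the 4 lines, from a fit over 45 libraries. Estimates scatter on both sides of 0 in each line and 1 of them passed the test (Trim25 in B16OVA, 1.14). The point of Iigp1 in B16 is left out because all 6 libraries had 0 counts.

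Trim25 (ENSMUSG00000000275) encodes a ubiquitin ligase that modifies the RNA sensor RIG-I. In B16OVA its 6 knockout libraries held 15.3, 28.2, 14.2, 18.2, 27.7 and 14.8 CPM and its 6 Ctrl libraries 8.78, 4.94, 5.92, 11.3, 10.2 and 7.46 CPM. Every knockout library was above every Ctrl library. The WT libraries held 15.5, 12, 14.8, 12, 6.76 and 15.5 CPM, and thus overlapped the knockouts. The log2 fold of knockout against Ctrl was 1.14 (SE 0.27, adjusted p = 0.0127). The call was lost without Ctrl library 3 (adjusted p = 0.0573), knockout library 2 (0.066) or knockout library 5 (0.0619), with a run term in place of the block (0.147) and with neither (0.175), and within the runs (0.674 in D176 alone, 0.153 in B253 and B262), while DESeq2 gave 0.00177 and the fit without the libraries of low length slope 0.0328. The log2 fold stayed between 0.97 and 1.34 in all of these settings. Trim25 estimates in the other lines were 0.49 (SE 0.37) in B16, 0.09 (SE 0.38) in MCA101OVA and -0.03 (SE 0.36) in MC38, none of them called. The KO effect did not differ by the test between B16OVA and another line for any member: 0 were called in B16, MCA101OVA and MC38 against B16OVA, beside 0.0%, 0.155% and 0.297% of all genes, and 1, 3 and 1 members had an unadjusted p under 0.05, as had 2.65%, 4.65% and 3.61% of all genes. DESeq2 also called 0 members in each of these contrasts. The mean effect over the 4 lines gave 0 calls among members, by edgeR and by DESeq2, and 1.3% among all genes, with 1 member and 8.34% of all genes at an unadjusted p under 0.05.

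The genes with the highest and the lowest knockout estimate of each line were not called. Irf7, the factor that amplifies the type I response, had the highest estimate in B16OVA, 1.21 (SE 1.08), at 0.308, 3.56, 0.428, 0.884, 0.681 and 0.473 CPM in knockouts and 0.112, 0.813, 0.228, 0.571, 0.179 and 0.163 CPM in Ctrl. Trim30d, a ubiquitin ligase gene with near copies beside it, had the highest in MCA101OVA, 1.84 (SE 1.07), from 2.02, 16.6 and 19.1 CPM in knockouts against 0.132, 0.959 and 60.4 CPM in Ctrl. Here 2 knockout libraries lay above their Ctrl partner and the last lay well below it, and the estimate turned to -0.62 with no block and no run term. Cmpk2, a mitochondrial nucleotide kinase, had the highest in MC38, 1.80 (SE 1.01), at 0.309, 0.0908 and 0 CPM in knockouts and 0.0828, 0.0301 and 0 CPM in Ctrl. The lowest estimate in B16OVA was that of Ly6e, a membrane protein that restricts some viruses and favours others. It rests on Ctrl library 2 at 1.28 CPM, where all other knockout and Ctrl libraries held 0.0744 CPM or less, and turned from -2.50 to 0.10 without that library. In MC38 the lowest was Ifi27l2a at 1.24, 0.227 and 0.524 CPM in knockouts and 5.63, 0.121 and 0.113 CPM in Ctrl. That estimate turned from -1.66 to 2.47 without Ctrl library 1, the line's library of low length slope. In MCA101OVA the lowest was again Ifi27l2a, -1.06 (SE 1.15), at 0.0825, 44.8 and 0.47 CPM in knockouts and 0.438, 52.2 and 1.41 CPM in Ctrl. In B16 both ends, Ifi27l2a and Ifi204, lay at or below 0.09 CPM in all 6 libraries.

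Between Ctrl and WT cells 0 members were called in any line, and 0.0% of all genes. DESeq2 and the fit without the libraries of low length slope also called 0 members. Without the filter on low counts, however, 21 were called in MC38 and 1 in B16OVA, and the shares of all genes in that setting are not given. At an unadjusted p under 0.05, 20 members were lower in MC38 Ctrl (1.37% of all genes; 4.06% in either direction), 1 was lower in B16OVA Ctrl (4.44%), and 0 differed in B16 and MCA101OVA (1.21% and 2.11%). The median member estimate in MC38 was -1.27, and it turned to 0.74 without WT library 1, went to -2.34 without Ctrl library 1 and was -0.77, with 10 members lower (1.45% of all genes), with the place in the library numbers as block.

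Instead of following the conditions, the members differed most among libraries of 1 condition in MCA101OVA and MC38. Library names give 3 sets for MCA101OVA, with 1 library of each condition in each: run B253, numbers 1 to 12 of run B262 (B262a) and numbers 13 to 24 (B262b). The MC38 libraries all come from run D176, and the order of their numbers within each condition gives places 1, 2 and 3. The labels do not say that a place is a shared culture, and this split and its tests were chosen after the values had been seen, so the tests describe these libraries. In MCA101OVA 42 of 44 members differed among the 3 sets (F-test of the same fit), all but Irf1 and Ly6e, against 43.7% of all genes. In MC38 33 of 44 differed among the 3 places, against 4.6%. In B16 3 of 44 differed among sets, against 10.5%, and in B16OVA 10 of 44, against 59.1%. Without the libraries of low length slope the counts were 40, 38, 0 and 2 in MCA101OVA, MC38, B16 and B16OVA. The shares of all genes in that fit are not given, so these counts do not tell whether the members or all genes moved.

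**Figure D2:**
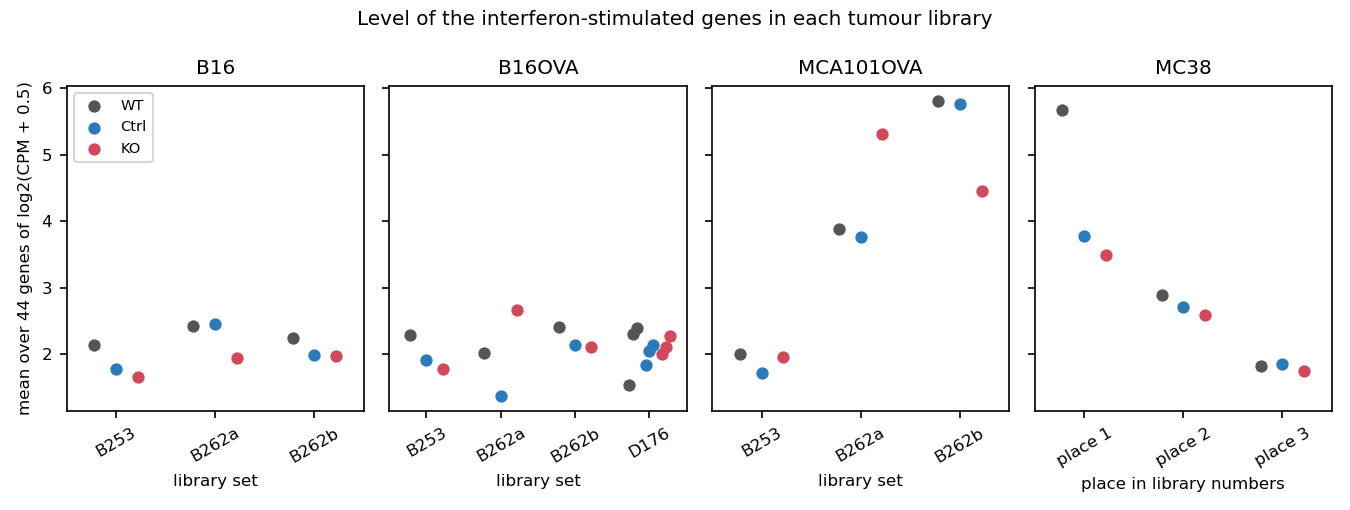
Mean over the 44 genes of log2(CPM + 0.5) in each of the 45 tumour libraries (1 point per library; y axis), by library set or, for MC38, by place in the library numbers (x axis), coloured by condition. MCA101OVA spans 1.72 to 5.81 and MC38 1.74 to 5.67, with the widest spread between conditions in the B262 sets and at place 1, while B16 and B16OVA stay between 1.37 and 2.67.

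In MCA101OVA the level of the list was 2.00, 1.72 and 1.97 (WT, Ctrl, KO) in set B253, 3.88, 3.76 and 5.31 in B262a and 5.81, 5.77 and 4.46 in B262b. Set B262a had 33 members called higher than B253 (9.41% of all genes) with a median log2 difference of 3.32, and B262b had 38 (9.0%) with a median of 4.04. Set B262b had 9 members higher and 1 lower than B262a, against 17.1% and 19.6% of all genes. Without the libraries of low length slope, which leaves B262a with its WT library alone, 0 members were called between B262a and B253 (0.0766% of all genes were higher) and the median was 2.05, while B262b had 39 higher than B253 (18.1%) and 3 higher and 0 lower than B262a (6.89% and 9.87%). The B253 library was the lowest of 3 in each condition for 37 of 44 members and for 9.45% of all genes, and in B16 for 9 of 44 and 4.5%. For the 44 members the median range between sets was 3.68 on the log2 scale and that between conditions 0.37, where all genes had 0.71 and 0.31. The range between sets was the wider for 44 of 44 members and for 79.5% of all genes. Knockout minus Ctrl in the level of the list was 0.25 in B253, 1.55 in B262a and -1.31 in B262b. In B262a 40 members were higher in the knockout, and in B262b 43 were lower. Each set holds 1 knockout and 1 Ctrl library, so dependence on the set cannot be told from a deviation of single libraries. In B262a both libraries of the difference, Ctrl 2 and KO 2, are of low length slope. The set thus has no such difference without them, and their part in it was not tested.

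Isg15 (ENSMUSG00000035692), the ubiquitin-like modifier whose promoter letters head the sequences, shows the pattern. In MCA101OVA sets B253, B262a and B262b it was at 8.51, 67.5 and 595 CPM in WT, 10.4, 206 and 548 CPM in Ctrl and 5.20, 416 and 261 CPM in knockouts. The libraries of B253 were low in all 3 conditions, and those of the other sets overlapped. The log2 difference from B253 was 4.95 (SE 1.00, adjusted p = 0.00269) in B262a, a call lost without the libraries of low length slope, and 5.82 (SE 1.014, adjusted p = 0.000123) in B262b. Bst2 (tetherin, which holds budding virus at the cell surface) was at 32.7, 117 and 620 CPM in WT, 38.8, 193 and 679 CPM in Ctrl and 27.9, 754 and 326.6 CPM in knockouts. Irf9, the DNA-binding subunit of the activator complex, was at 6.58, 41.6 and 111 CPM in WT, 6.62, 43 and 93.4 CPM in Ctrl and 5.36, 98.3 and 66 CPM in knockouts. Both followed Isg15 in order. Usp18, the protease that removes ISG15 and blocks the receptor, went from 0.697, 0.877 and 0.248 CPM in B253 to 254, 212 and 72.3 CPM in B262b. The GTPase gene Irgm1 was at 19.3, 15.4 and 13.6 CPM (WT, Ctrl, KO) in B253, 78.1, 98.6 and 209 CPM in B262a and 308.3, 231 and 106 CPM in B262b. The macrodomain gene Parp9 was at 10.3, 6.09 and 10.4 CPM in B253, 27.2, 25.4 and 60.8 CPM in B262a and 97.1, 100 and 36.0 CPM in B262b. Parp9 and its partner Dtx3l overlap at their ends in the genome, and with the strand setting not given reads from the shared stretch cannot be told apart. The HIN-200 gene Ifi204 was at 4.14, 1.89 and 4.99 CPM in B253, 30.3, 35.0 and 51.3 CPM in B262a and 46.9, 53.5 and 14.6 CPM in B262b. For the secreted protein gene Lgals3bp the figures were 16.2, 17.6 and 10.0, then 101, 52.2 and 274, then 106, 92.8 and 45.1 CPM. These genes, from most roles of the list, thus share a lowest set. For all those given in 3 sets, B262b lay above B262a in WT and in Ctrl and below it in knockouts.

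Some members went their own way. Ifi27l2a was high in B262a alone, at 16.8, 52.2 and 44.8 CPM, with 0.349, 0.438 and 0.0825 CPM in B253 and 2.30, 1.41 and 0.47 CPM in B262b. It is the shortest gene of the list, at 463 bases, and CPM fell with transcript length in the B262a libraries (slopes -0.14, -0.70 and -0.22 in WT, Ctrl and KO). The part of length in its level was not tested. Ifit2, an RNA-binding IFIT gene, was at 9.39, 9.01 and 25.1 CPM in WT, 3.20, 5.02 and 32.8 CPM in Ctrl and 26.8, 16.6 and 16.5 CPM in knockouts, and was called for neither set against B253. Ly6e stayed between 133 and 526.1 CPM and Irf1 between 23.5 and 68.4 CPM. Cmpk2 was at or below 0.121 CPM in all 9 MCA101OVA libraries, the same cells in which its neighbour on chromosome 12, Rsad2 (viperin), reached 76.3 CPM.

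In MC38 the level of the list was 5.67, 3.78 and 3.49 (WT, Ctrl, KO) at place 1, 2.90, 2.71 and 2.59 at place 2 and 1.83, 1.85 and 1.74 at place 3. Place 3 had 34 members called lower than place 1 (5.54% of all genes) with a median of -3.31, and place 2 had 15 (0.274%) with a median of -1.91. Place 3 had 2 members lower than place 2 (0.613%). Without Ctrl library 1 and the other libraries of low length slope these counts were 39 (7.77%), 29 (0.519%) and 18 (3.75%). The place 1 library was the highest of 3 in each condition for 34 of 44 members and for 10.2% of all genes. The median range was 2.49 between places and 0.97 between conditions, beside 0.38 and 0.25 for all genes, and that between places was the wider for 43 of 44 members, all but Cmpk2, and for 66.1% of all genes. Knockout minus Ctrl in the level of the list was -0.28, -0.11 and -0.11 at places 1, 2 and 3. Isg15 was at 174, 14.3 and 4.61 CPM (places 1, 2, 3) in WT, 68.4, 9.56 and 3.91 CPM in Ctrl and 26.8, 7.77 and 5.18 CPM in knockouts. Its log2 difference from place 1 was -2.94 (SE 0.51, adjusted p = 0.00442) at place 2 and -4.02 (SE 0.55, adjusted p = 1.99e-05) at place 3. Bst2 was at 543, 57.2 and 39.8 CPM in WT, 262.3, 57.1 and 41.1 CPM in Ctrl and 95, 58.5 and 52.7 CPM in knockouts, so that place 1 stood apart from the other places. Irf9 was at 88.2, 15.4 and 10.5 CPM in WT, 29.5, 14.4 and 9.77 CPM in Ctrl and 27.4, 14.2 and 9.31 CPM in knockouts. Usp18 went from 143, 16.2 and 6.67 CPM (WT, Ctrl, KO) at place 1 to 0.234, 0.0752 and 0.233 CPM at place 3. Ifit2 stayed between 15.9 and 48.2 CPM, Irf1 between 14.7 and 27.4 CPM and Ly6e between 98.7 and 161 CPM, and these 3 were called at neither place, as in MCA101OVA. MC38 Ctrl library 1, at place 1, is of low length slope.

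**Figure D3:**
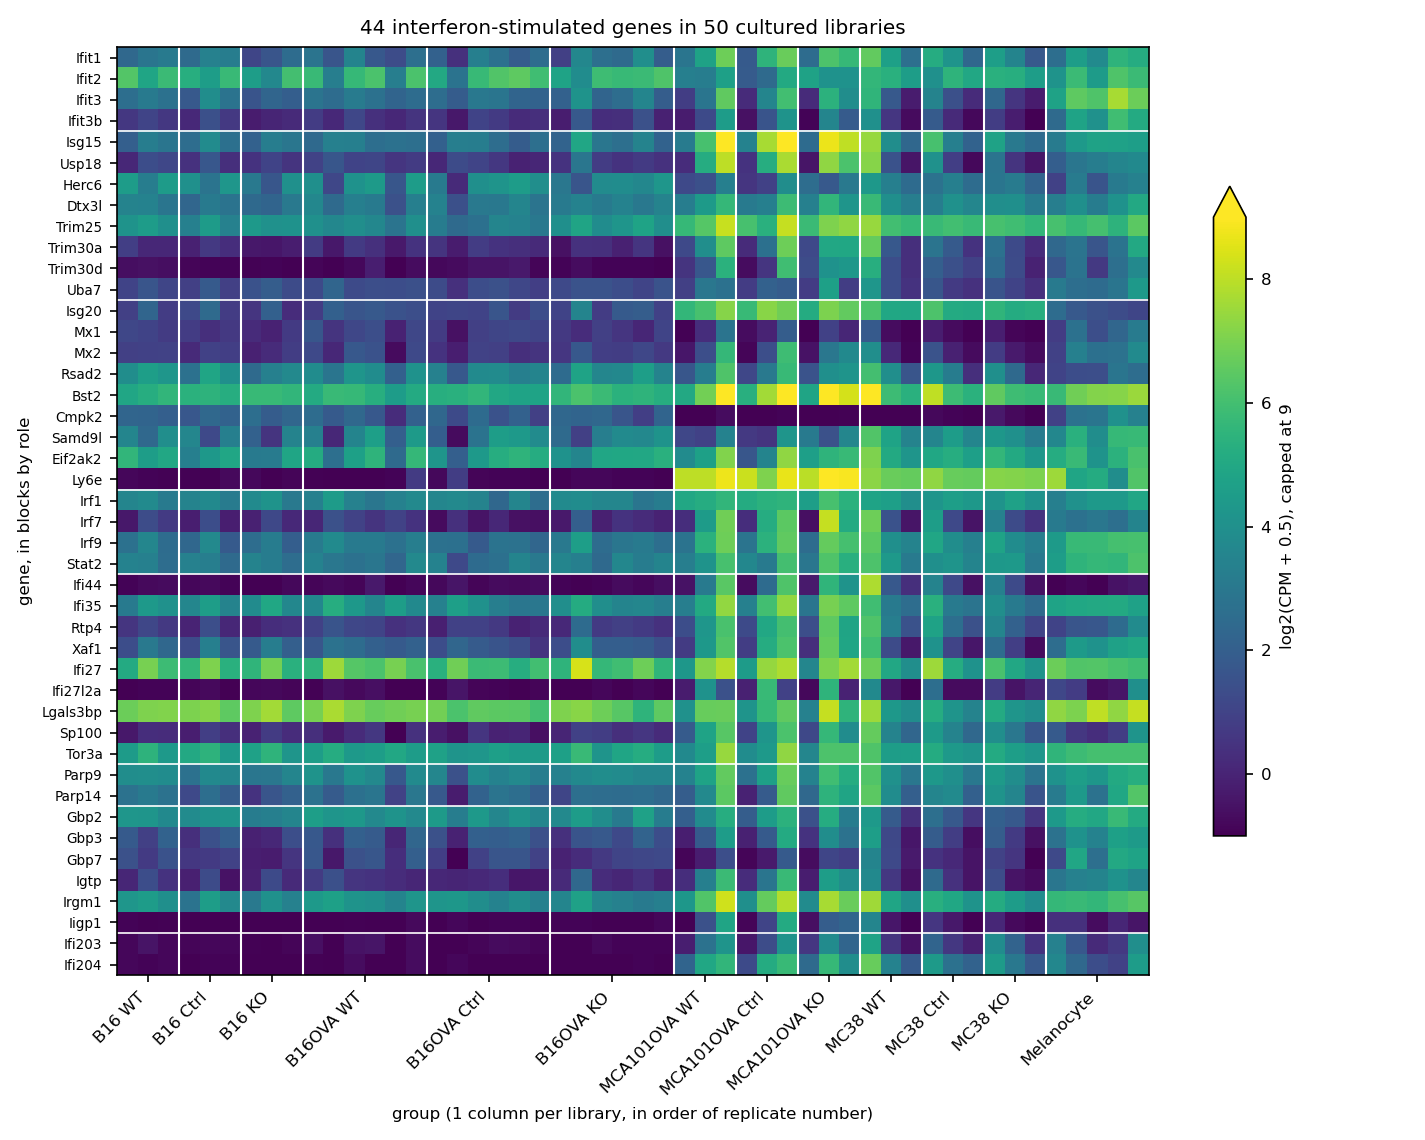
Log2(CPM + 0.5) of the 44 genes (rows, in blocks by role) in the 50 cultured libraries (columns, by group and in order of replicate number), with the colour scale capped at 9. Within MCA101OVA the first library of each group is dark and within MC38 the first is bright for most genes, as with Isg15 at 8.51, 10.4 and 5.20 CPM and at 174, 68.4 and 26.8 CPM.

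Of the upstream pathway, interferon genes themselves were almost without counts. Of 21 listed, 7 had a count in any of the 45 tumour libraries, 12 counts at most, and 0 passed the filter. That maximum was Ifnb1, the gene of interferon beta, in MCA101OVA WT of set B262b, where the B253 and B262a libraries had 0. Ifnb1 counts in MC38 WT were 7, 2 and 0 at places 1, 2 and 3. All other tumour libraries held 4 counts of Ifnb1 or fewer, so that differences in it were not detectable at this depth. All 6 receptor genes and all 14 transducers and regulators were tested, and in the knockout contrasts 1 of the 20 was called (1.44% of all genes in that line): Ifnlr1, a chain of the lambda interferon receptor, in B16OVA. It was at 2.62, 3.70, 2.08, 4.49, 3.50 and 3.49 CPM in knockouts and 1.64, 0.349, 1.31, 1.21, 1.28 and 1.53 CPM in Ctrl, with no overlap, and a log2 fold of 1.35 (SE 0.24, adjusted p = 0.00172). Ifnlr1 was also 2.19, 3.12 and 2.30 CPM in B16 knockouts and 1.51, 2.88 and 1.51 CPM in Ctrl, a log2 fold of 0.46 (SE 0.32) that was not called.

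Socs1, which inhibits the Jak kinases, had 3.52 to 8.02 CPM in MCA101OVA with no set called, and was called at no place of MC38. Other regulators did differ among the MCA101OVA sets by the F-test: Ptpn6, Socs3, Irf8, Ptpn2, Irf3, Jak2 and Jak1 (adjusted p = 4.37e-05 to 0.0405). So did 7343 of all 16809 genes tested, and these calls do not set the regulators apart from other genes. Irf2, Irf5, Stat3, Tyk2 and Pias1 did not. Irf8 also differed among the places of MC38 (adjusted p = 0.00468 by the F-test), as did 773 of all 16809 genes. Socs1 was called in no knockout contrast, with log2 folds of 0.06, 0.14, 0.32 and 0.23 in B16, B16OVA, MCA101OVA and MC38. Nor was it called in a contrast of Ctrl with WT.

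By group mean, the B16 type lines held the list at its lowest among WT cells, and 9 to 10 of the 44 genes there averaged under 1 CPM. The list averaged 2.27 ± 0.14 (SD, n = 3) in B16, 2.16 ± 0.34 (n = 6) in B16OVA, 3.90 ± 1.91 (n = 3) in MCA101OVA, 3.46 ± 1.98 (n = 3) in MC38 and 3.84 ± 0.57 (n = 5) in melanocytes, on the scale of log2(CPM + 0.5). Single libraries did not keep this order: MC38 WT library 3, at 1.83, lay below all B16 WT libraries (2.14 to 2.42), and within set B253 MCA101OVA WT, at 2.00, lay below B16 WT at 2.14 and B16OVA WT at 2.29. Between B16OVA and B16, 0 members were called in either direction by edgeR or DESeq2 (0.00591% of all genes were higher and 0.0% lower), and 0 had an unadjusted p under 0.05. Against MCA101OVA 1 member was higher in B16OVA (17.8% of all genes) and 12 were lower (15.6%), and against MC38 1 was higher (23.9%) and 22 were lower (14.6%). Against melanocytes 0 were higher (21.4%) and 15 lower (22.4%), a smaller share of the 44 than of all genes in the first case and a larger one in the other. These counts lean on single libraries. The 22 lower than in MC38 became 5 without MC38 WT library 1, and 13, 11 and 14 without B16OVA WT library 4, 5 or 6. The 12 lower than in MCA101OVA became 4, 5 and 6 without B16OVA WT library 3, MCA101OVA WT library 3 and B16OVA WT library 2, and 21 without MCA101OVA WT library 1 or MC38 WT library 1. The 15 lower than in melanocytes became 8 or 9 without B16OVA WT library 6 or 5 and 24 without MC38 WT library 1. Without melanocyte libraries 1 and 5 they were 12. Without the B16OVA libraries of low length slope the counts lower in B16OVA were 6, 11 and 9 against MCA101OVA, MC38 and melanocytes. With no block for the library set 31 were lower than in MCA101OVA, and DESeq2 gave 23 lower than in melanocytes. The shares of all genes in these refits are not given, so the counts do not tell whether the members or all genes moved.

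The single member higher in B16OVA than in both other tumour lines was Cmpk2. It was at 5.30, 3.03, 4.67, 2.87, 0.70 and 3.83 CPM in B16OVA WT and 4.25, 4.22 and 3.53 CPM in B16 WT. MCA101OVA WT had 0, 0 and 0.121 CPM and MC38 WT 0, 0 and 0 CPM, and melanocytes had 1.41, 6.34, 6.90, 16.3 and 10.1 CPM. B16OVA thus lay above the other tumour lines in every library, with adjusted p = 0.000252 and 0.000141. Its library 5 lay below all melanocyte libraries and the other 5 within their range. In a further run, B176, with 1 library per line, Cmpk2 had the other direction against MC38: it was at 4.86 CPM in B16-OVA and at 22.5, 28.2 and 54.1 CPM in MC38, MC38-GFP and MC38-OVA. Ly6e was the reverse. B16OVA WT held 0 to 1.15 CPM and B16 WT 0.0198 to 0.0721 CPM, where MCA101OVA WT had 253.1, 258 and 425 CPM, MC38 WT 152, 105 and 98.7 CPM and melanocytes 184, 28.7, 34.6, 14.3 and 77.6 CPM. Ly6e was called lower against all 3, with adjusted p = 8.62e-06, 9.91e-05 and 0.000165. The highest level of Ifi204 in the B16 and B16OVA libraries of any condition was 0.128 CPM, that of Iigp1 0.0957, of Ifi203 0.231, of Ifi27l2a 0.232, of Ifi44 0.297 and of Trim30d 0.396. Their highest levels over the MCA101OVA and MC38 libraries were 103, 34.3, 27.3, 52.2, 216 and 60.4 CPM in the same order. Fold changes of these genes would depend on the prior count of the fit and are left out. Iigp1 and Ifi44 were also near 0 in melanocytes, at most 0.817 and 0.289 CPM. Ifit3b, a near copy of Ifit3 with which it may share reads, was at 4.93, 27.7, 16.3, 60.6 and 34.2 CPM in melanocytes and at 0.583 to 1.70 CPM in B16OVA WT (adjusted p = 0.0075). All 5 melanocyte libraries held leucocyte transcripts, with marker sums of 228 to 6172 CPM. The pan-leucocyte gene Ptprc was at 19.7, 6.47, 1.81, 2.74 and 117 CPM in libraries 1 to 5 and the macrophage gene Lyz2 at 1155, 266, 382, 183 and 4226 CPM. The fibroblast gene Col1a1 was at 5879, 814, 216, 446 and 75.9 CPM, the highest in library 1. The part of such cells in the members' levels was not tested. Without libraries 1 and 5, which leaves 183 to 382 CPM of Lyz2, Ly6e, Ifi204, Ifit3b and Trim30d were called and Ifi203 and Ifi27l2a were not. Ifi203 was at 10.1 and 14.8 CPM in melanocyte libraries 1 and 5 and at 2.78, 0.647 and 1.06 CPM in the others.

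Receptor and regulator genes differed between the WT lines too. Ifngr2, Ifnlr1 and Il10rb were called higher in B16OVA than in MCA101OVA and MC38, as 3 of 6 receptor genes, beside 17.8% and 23.9% of all genes. Ifnlr1 had 0 counts in the 6 libraries of those lines and 0.681 to 1.59 CPM in B16OVA. Of the 14 regulators 0 were higher, and Irf5, Irf8, Socs1 and Socs3 were lower against both lines, as was Ptpn2 against MCA101OVA, beside 15.6% and 14.6% of all genes. Socs1 was at 0.21 to 0.996 CPM in B16OVA WT, 5.46 to 8.02 CPM in MCA101OVA WT and 5.94 to 7.62 CPM in MC38 WT, without overlap (adjusted p = 0.00343 and 0.00292).

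In healthy tissues the list was highest in lymphoid organs and lowest in brain. Spleen had 40 of 44 members called higher than the mean of the other 11 tissues (34.1% of all 26242 genes tested were), lymph node 39 (32.6%), thymus 38 (40.0%), lung 35 (31.9%) and liver 33 (28.5%). Brain had 41 lower (35.0%), skin 41 (27.4%) and stomach 32 (26.3%). Colon had 16 higher and 20 lower (30.3% and 24%), kidney 9 and 22 (31.5% and 25.9%), heart 5 and 16 (28.5% and 31.5%) and ovary 7 and 15 (32.6% and 23.1%). In the other directions, liver had 4 lower (35.9%), thymus 1 (29.1%), spleen, lymph node and lung 0 each (31.0%, 29.0% and 25.3%), stomach had 9 higher (33.1%), brain 1 (36.3%) and skin 0 (30.4%). Median member differences were 1.27 in lymph node, 1.26 in spleen, 1.17 in liver, 1.12 in thymus and 0.89 in lung, and -3.05 in brain, -1.77 in skin and -1.08 in stomach. All genes had medians of -0.10, -0.13, -0.45, 0.10, -0.06, -0.17, -0.09 and -0.06 in the same order. These calls and differences rest on TMM scaling, while the levels of the list are on plain CPM. On plain CPM the list in liver did not reach its level in colon or ovary. In bulk tissue, fewer cells of a type and less RNA per cell cannot be told apart.

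**Figure D4:**
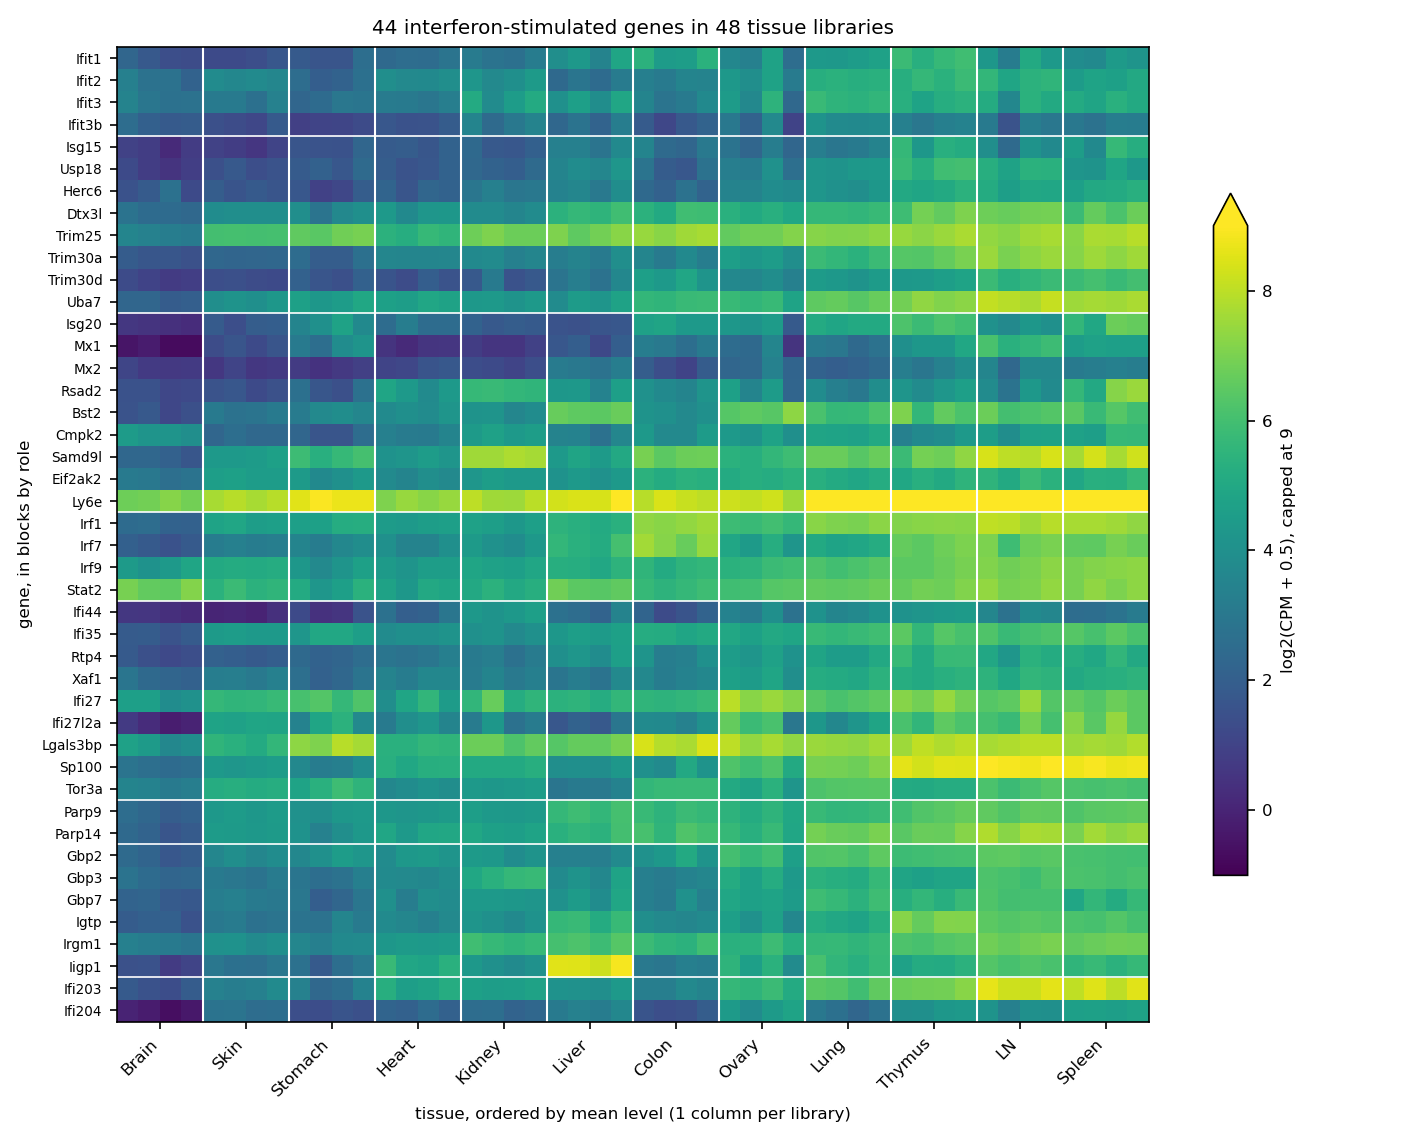
Log2(CPM + 0.5) of the 44 genes (rows, in blocks by role) in 48 tissue libraries (columns, 4 per tissue, tissues ordered by mean level), with the colour scale capped at 9. Brain at the left is darkest (mean 2.22) and thymus, lymph node and spleen at the right are brightest (5.94, 6.06 and 6.10).

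The mean level of the list, with the SD over 4 libraries, was 2.22 ± 0.20 in brain, 3.36 ± 0.07 in skin, 3.48 ± 0.23 in stomach, 3.70 ± 0.11 in heart, 4.16 ± 0.13 in kidney, 4.44 ± 0.28 in liver, 4.47 ± 0.16 in colon, 4.82 ± 0.40 in ovary, 5.40 ± 0.15 in lung, 5.94 ± 0.17 in thymus, 6.06 ± 0.25 in lymph node and 6.10 ± 0.15 in spleen. The libraries of neighbours in this order overlapped, except those of brain and skin, heart and kidney, ovary and lung, and lung and thymus. The 16 leucocyte markers, none of them at 0, summed to 63.8 to 94.7 CPM in brain, 533 to 613 CPM in skin, 4814 to 5917 CPM in lung, 3367 to 3777 CPM in thymus, 5495 to 7998 CPM in lymph node and 7261 to 8435 CPM in spleen. Liver, with 33 members higher by the test, had 193 to 310 CPM of markers, below skin, with 41 lower. The test used TMM scaling, while levels and marker sums are on plain CPM. On plain CPM the list in liver, at 4.44, lay above skin but below colon and ovary, where 16 and 7 members were called higher. The marker sum put lung above thymus, but the pan-leucocyte gene Ptprc alone was at 126 to 193 CPM in lung and 990 to 1536 CPM in thymus. The sum is thus no measure of the share of leucocytes. The part of leucocyte content in the levels was not tested.

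**Figure D5:**
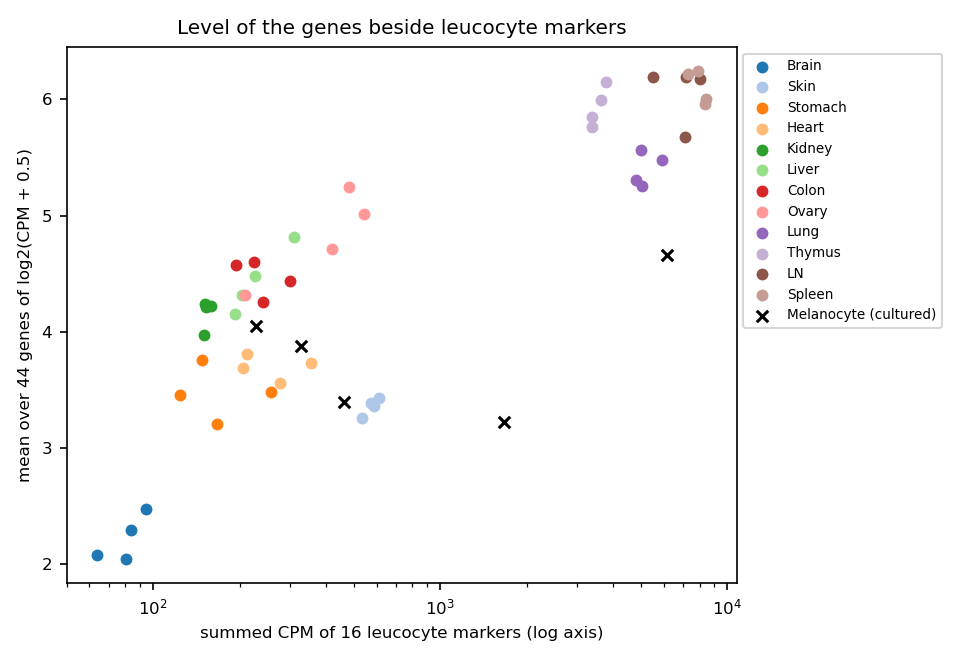
Mean over the 44 genes of log2(CPM + 0.5) (y axis) against the summed CPM of 16 leucocyte markers (x axis, log scale), 1 point per library, for 12 tissues and the cultured melanocytes (crosses). By this sum spleen, lymph node, thymus and lung lie at the upper right and brain at the lower left. Skin, with 533 to 613 CPM of markers, lies below kidney and liver.

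The highest tissue was lymph node for 15 members, spleen for 12, thymus for 8, lung for 3, colon and ovary for 2 each, and kidney and liver for 1 each. The lowest was brain for 33, stomach for 7, skin for 2, and heart and liver for 1 each. Iigp1, an immunity-related GTPase that attacks the vacuole of intracellular parasites, stood out in liver at 370, 366, 297 and 470 CPM. All 4 lay above every other tissue, of which lymph node had the next highest mean, 73.2 CPM, and the log2 difference from the other 11 tissues was 5.53 (SE 0.12, adjusted p = 3.31e-31). Heart was also above the others' mean in Iigp1, at 54.8, 29.9, 27.5 and 40.0 CPM (log2 difference 1.47, SE 0.16). Bst2 was at 101, 90.5, 87.7 and 104 CPM in liver and 80.8, 90.9, 85.1 and 158 CPM in ovary, which overlapped, and averaged 2.33 CPM in brain.

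Irf7 was highest in colon, at 196, 144, 101 and 175 CPM (log2 difference 2.51, SE 0.11, adjusted p = 4.69e-21), where lymph node, with the next highest mean, had 131, 59.6, 112 and 126 CPM and overlapped. Colon Irf1 was at 161, 148, 165 and 191 CPM. Rsad2 averaged 102 CPM in spleen and was at 51.1, 53.9, 49.2 and 46.8 CPM in kidney and 29.1, 21, 13.3 and 20.7 CPM in heart. Kidney held the highest mean of Ifi44, 20.2 CPM, with 19.4, 17.2, 19.5 and 24.6 CPM, next to thymus with a mean of 19 CPM. The GTPase gene Mx1 was at 70.2, 40.5, 47.4 and 57.4 CPM in lymph node. In stomach, an organ in which 32 members were lower, it was at 7.90, 5.70, 13.9 and 17.4 CPM. Lgals3bp was the other gene named for stomach, at 159, 134, 246 and 199 CPM. Ifi204 in ovary was at 21.3, 13.7, 21.2 and 27.0 CPM.

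In lymphoid organs and lung the named genes were of several roles. The HIN-200 gene Ifi203 was at 399, 301.1, 290 and 380 CPM in lymph node and 261.96, 368, 256 and 374 CPM in spleen, and averaged 2.68 CPM in brain. Trim30a, a negative regulator of Toll-like receptor signals, was at 145, 183, 159 and 190 CPM in spleen. Thymus had Sp100, a nuclear body protein, at 390, 320, 370 and 369 CPM and Usp18 at 54.1, 37.8, 60.8 and 63.6 CPM, the highest Usp18 of all tissues, with every library except the second above those of lymph node, whose highest was 41.3 CPM. Lung had Gbp2, a guanylate-binding protein, at 76.7, 79.5, 70.1 and 91.2 CPM and the exonuclease gene Isg20 at 33.9, 28.6, 33.0 and 33.2 CPM. The 1 member called higher in brain was Stat2, at 121, 96.3, 91.9 and 141 CPM (log2 difference 0.55, SE 0.10, adjusted p = 8.93e-06).

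Of the 14 transducers and regulators, 14 were called higher in lymph node (32.6% of all genes), 13 in spleen (34.1%) and 12 in thymus (40.0%), with 0 lower in each. Lung had 10 higher and 1 lower (31.9% and 25.3%), liver 7 and 3 (28.5% and 35.9%) and colon 4 and 5 (30.3% and 24%). Skin had 4 higher and 8 lower (30.4% and 27.4%), stomach 2 and 8 (33.1% and 26.3%), ovary 1 and 10 (32.6% and 23.1%), heart 1 and 11 (28.5% and 31.5%), brain 1 and 12 (36.3% and 35.0%) and kidney 0 and 13 (31.5% and 25.9%). Their order of tissues was not that of the list: the regulators' summed level had a median of 976 CPM in skin, above colon at 847 CPM, kidney at 563 CPM and liver at 535 CPM. Socs1 was at 227, 131, 166 and 154 CPM in thymus, far above the next, lymph node, at 28.9, 25.3, 21.3 and 28.8 CPM. In liver Socs1 was at 0.741, 0.448, 0.47 and 0.474 CPM, lower than in the other tissues by the test (log2 difference -2.46, SE 0.22, adjusted p = 1.22e-12). Of the interferon genes 3 of 21 passed the filter. Ifng was highest in spleen at 1.10, 0.636, 0.877 and 0.725 CPM. Ifnl2 was at 0.164 to 0.21 CPM in thymus and at most 0.0271 CPM elsewhere. Ifne was at 0.667, 0.858, 0.644 and 0 CPM in ovary, at 0.0497 to 0.397 CPM in stomach and at most 0.0211 CPM elsewhere.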

How the data were processed

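Poly(A) RNA of cultured cells and tissues was sequenced with a stranded kit. Trim Galore, FastQC, STAR, HTSeq and build mm10 are named in the submitters' processing notes, without versions. Annotation and strand handling were not given in the sources used here. Per Ensembl gene, the authors deposited raw counts, and 53274 of 53379 IDs were matched to symbols. A second deposited table holds the same counts divided by 1 number per library and was not used. Totals were 17186211 to 50393024 counts in tumour libraries, 19863405 to 30593253 in melanocytes and 53591239 to 254103370 in tissues.

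Counts were tested with edgeR 4.0.16 in R 4.3.3 (quasi-likelihood, TMM, filterByExpr by group), with p-values adjusted by Benjamini-Hochberg over all genes and called under 0.05. The fits held 45 tumour, 20 WT and 48 tissue libraries, with 16809, 16929 and 26242 genes and 26, 12 and 33 residual degrees of freedom. The fit of WT cells spans lines and melanocytes. The block was the library set, read from library names: B253, both parts of B262, D176, and 4 sets of tissue libraries. Same-set libraries deviated together: all 9 pairs in B16 and in MCA101OVA correlated above 0.1 (lowest 0.27 and 0.16), as did 12 of 12 knockout and Ctrl pairs of B16OVA but only 29 of its 36 pairs in all, and the 9 pairs of MC38 by place (lowest 0.16). Alternatives were DESeq2 1.42.0, RLE factors, no filter, other blocks and left-out libraries. The script was tested on simulated counts.

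Values per library are given for genes called between conditions, the gene of highest mean CPM in a role, the extremes of each knockout contrast, the called genes of largest fold in WT cells and the 2 in each tissue. Further genes were chosen after their values were seen. The members, lists and rules were chosen with earlier results of these data known. Mouse promoters came from RefSeq. Near copies (Trim30a and Trim30d, Ifit3 and Ifit3b, Ifi203 and Ifi204, Mx1 and Mx2, the Gbp genes) may share reads. No pair of libraries held identical values. The self-made split of MC38 by place used 24 residual degrees of freedom. A result for 1 pathway gene is not reported here.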

Additional observations from a re-analysis of the deposited data

Results flagged for a closer look

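In kidney, library 3 held a mean log2 level of the 44 genes of 3.97, where the other libraries held 4.21 to 4.24. In lymph node, library 2 held 5.68, where the others held 6.17 to 6.19. Both lay far from the other 3 libraries for the range of their group. In all, 22 such comparisons were made, and chance alone flags about 1 in 20.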

How the results depend on the processing

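Without the filter on low counts, knockout calls among members numbered 1 for B16, 3 for B16OVA and 2 each for MCA101OVA and MC38, calls between Ctrl and WT were 1 in B16OVA and 21 in MC38, and differences of the knockout effect from B16OVA were 1 for B16, 2 for MCA101OVA and 8 for MC38. The same setting gave 17 members that differed among sets in B16, 24 in B16OVA and 0 lower in thymus. It also gave 24 members higher and 2 lower in set B262b than in B262a (10.4% and 7.99% of all genes). In MC38 it gave 26 lower at place 2 (0.303%) and 7 lower at place 3 (0.222%) than at the place before. For the other counts of this paragraph the shares of all genes are not given, so they do not tell whether the members or all genes moved. With the 2 groups of the line alone, B16 gave 1 knockout call. In B16OVA the knockout calls were 0 with no replicate block and no run term, with no replicate block and a run term, within D176 and within B253 and B262, and 0 to 1 on leaving out 1 library. With no replicate block, 31 members were lower in B16OVA than in MCA101OVA WT and 1 was higher than in melanocytes, and DESeq2 gave 23 lower than in melanocytes. The replicate block changed no other count of calls beyond 1.5 times.

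Without the libraries of low length slope, an alternative chosen after seeing the data for WT cells and for sets, 2 members were higher and 6 lower than in MCA101OVA, 11 lower than in MC38, 1 higher and 9 lower than in melanocytes, and 0 and 2 differed among sets of B16 and B16OVA. In pairs of sets or places, 0 members were then higher in B262a than in B253, 3 higher and 0 lower in B262b than in B262a, and 29 and 18 lower at places 2 and 3 of MC38 than at the place before. Leaving out 1 library gave 1 to 2 higher and 4 to 21 lower against MCA101OVA, 1 to 5 higher and 5 to 28 lower against MC38, and 0 to 1 higher and 8 to 24 lower against melanocytes. In tissues, 1 replicate number was left out of all tissues at a time. This gave 1 to 2 higher in brain and 0 to 1 lower in lymph node (1 without number 3). It gave 4 higher in ovary without number 1, 5 higher in stomach without number 2 and 0 lower in thymus without number 1. Except for pairs of sets or places, the shares of all genes in these refits are not given. Those counts thus do not tell whether the members or all genes moved. Signs turned for Ifi27l2a in MC38 (2.47 without the low slope libraries, -2.55 to 2.47 on leaving out 1 library), for Trim30d in MCA101OVA (-0.62 with no replicate block and no run term, -0.27 with a run term) and for Ly6e in B16OVA (-3.09 to 0.10 on leaving out 1 library). The causes were not tested. Of the recomputed folds, 771 kept direction and side of the threshold, 31 lost the call, 3 gained it and 5 turned sign. Depth limits members under about 1 CPM in the B16 lines, where a few counts set a fold.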

Other observations

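A further run, B176, holds 1 WT library for each of 7 cell lines, with no replicate and no test. Its Isg15 level was 5.61 CPM in B16 and 5.83 in B16-OVA, 286 in MC38, 249 in MC38-GFP and 118 in MC38-OVA, and 66.8 in MCA101 and 39.5 in MCA101-OVA. The B16 libraries were thus the lowest and the MC38 libraries the highest of this run. Usp18 was at 0.81 and 2.35 CPM in the B16 libraries, 193, 136 and 62.6 CPM in the MC38 libraries and 22.8 and 21.7 CPM in the MCA101 libraries. Ifi44 was at 0.183 and 0.414 CPM, then 417, 317.1 and 163 CPM, then 49 and 17.5 CPM in the same order.

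Cmpk2 was at 22.5, 28.2 and 54.1 CPM in MC38, MC38-GFP and MC38-OVA of that run, where the 9 MC38 libraries of the comparisons held at most 0.309 CPM. B16 and B16-OVA of the same run held 1.57 and 4.86 CPM, below those 3 libraries. In MCA101 and MCA101-OVA it was at 0 and 0.106 CPM. Ly6e was at 0.131 and 0.111 CPM in the B16 libraries and at 157, 315.2 and 662 CPM in the MC38 libraries. Ifnb1 had 10, 16 and 3 counts in MC38, MC38-GFP and MC38-OVA and 1 and 4 counts in the MCA101 libraries.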
